A study of Arabidopsis thaliana with 7 samples.

Results

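The genes described here link the nitrate response of Arabidopsis thaliana roots to its regulators, to a nitrate transporter and to the supply of reductant. They are HHO3 (AT1G25550), HHO2 (AT1G68670), NRT1.4 (AT2G26690), PGD1 (AT1G64190) and PGD3 (AT5G41670), chosen by locus. Each of the 5 genes was read by 1 probe set of its own on the Affymetrix ATH1 array. These are 5 of the 13286 genes with at least 1 probe set of their own among the 22810 of the array. RNA was taken from roots of plants that had been starved of nitrogen for 2 days and, after 9 days, placed for 1 h on plates with or without dexamethasone. The groups were the ANR1-GR line with 1 µM dexamethasone (1 array, from replicate 2), the ANR1-GR line without it (2 arrays), the wild type with 1 µM dexamethasone (2 arrays) and the wild type without it (2 arrays). The line, ANGR4-12, is in the C24 ecotype and carries ANR1, a MADS-box transcription factor, joined to part of the rat glucocorticoid receptor (rGR) that keeps the protein out of the nucleus until a steroid is added. The 35S promoter, active in most plant tissues, drives the transgene. The wild type has the stock code N906 and the labels call its ecotype a control. That wording does not settle whether line and wild type differ in ecotype. If they do, ecotype and transgene cannot be told apart. Each array held RNA of 20 pooled plants, and all groups shared the nitrogen starvation, so the series has no nitrate-fed roots to set these levels against.

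Plants take up nitrate through transporters, reduce it to nitrite and ammonium and assimilate the ammonium into amino acids. HHO2 and HHO3 belong to a small family of GARP-type transcriptional repressors that nitrate induces and that in turn hold down genes of the nitrogen starvation response, among them high-affinity nitrate transporter genes. NRT1.4, also named NPF6.2, is a low-affinity nitrate transporter known mainly for nitrate storage in the leaf petiole. PGD1 and PGD3 encode 6-phosphogluconate dehydrogenase, an enzyme of the oxidative pentose phosphate pathway that makes NADPH, which non-green plastids pass to ferredoxin for the reduction of nitrite.

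The values are linear signals that the authors scaled alike on all arrays. They carry no detection calls, and signals of different probe sets cannot be ranked against each other. Arrays of the same replicate number deviated from their group means together. The 3'/5' signal ratio of the actin control, a sign of RNA integrity, was 0.251 to 0.528 in 5 arrays but, in replicate 2, 1.59 in the line without dexamethasone and 0.876 in the wild type with it. Another pair of actin control probe sets gave 1.77 to 2.55 in the same 5 arrays, and 5.3 and 3.53 in the other arrays. Actin ratios given below are those of the former pair. Of the fixed root markers the platform annotation paired 3 of 11 with 1 probe set of their own. PYK10, a beta-glucosidase abundant in roots, had signals of 2673 to 3148. The root hair expansin genes EXPA7 (AT1G12560) and EXPA18 (AT1G62980) had 27.0 to 127.6 and 177.4 to 313.1. On the log2 scale replicate 2 minus replicate 1 was -1.11 ± 0.28 for EXPA7 (SE, adjusted p 0.0406 by limma) and 0.49 ± 0.14 for EXPA18 (adjusted p 0.0638). Of the 12 markers of green tissue 1 was so paired, LHCB4.1, at 58.4 to 119.5. In pooled roots, fewer cells of a type and less RNA per cell cannot be told apart. ANR1 itself was paired with no probe set, so the transgene's level is not shown here.

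**Figure D1:**
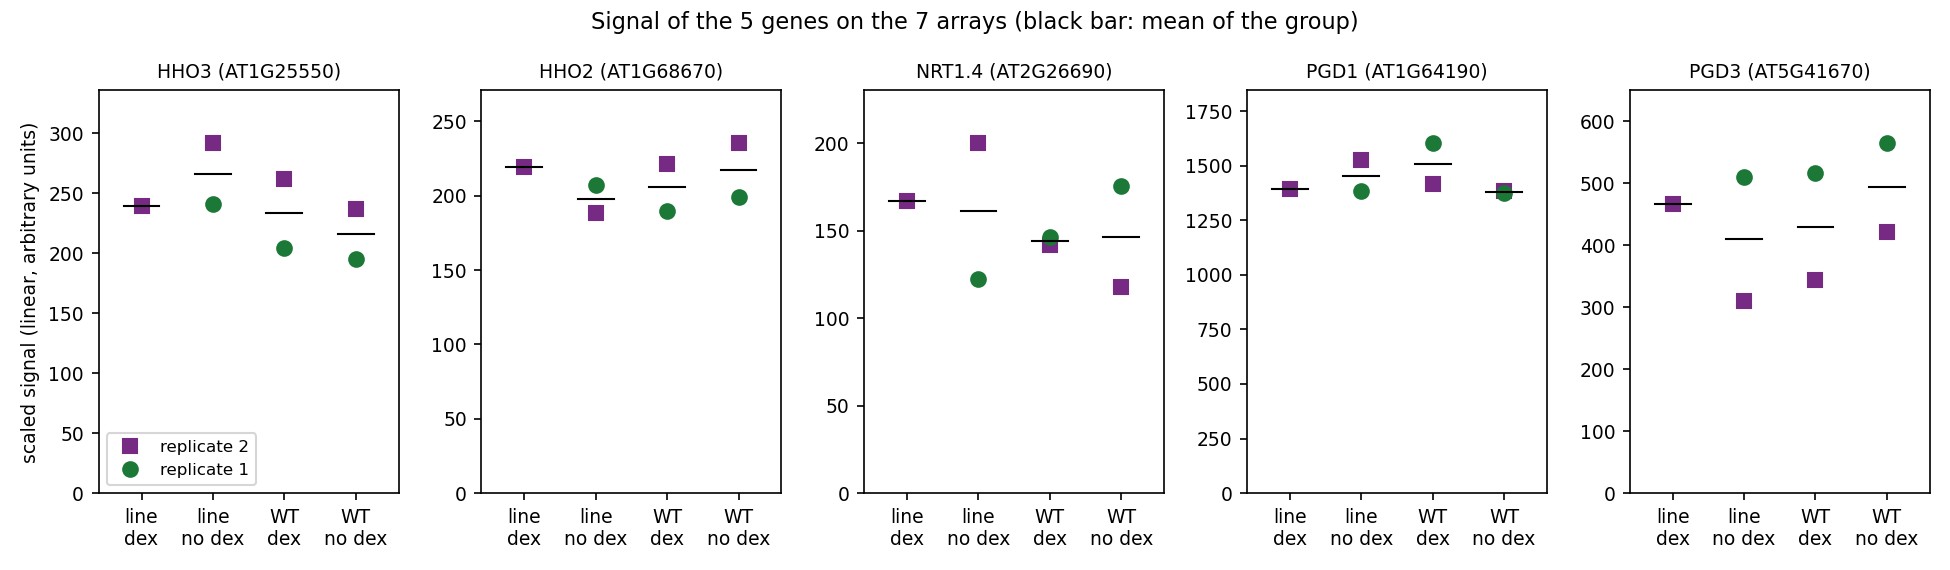
Scaled signal (linear, arbitrary units) of HHO3, HHO2, NRT1.4, PGD1 and PGD3 on each of the 7 arrays, with squares for replicate 2, circles for replicate 1 and a black bar for the group mean (the treated line has 1 array). PGD1 lay within 1375 to 1604 on all arrays, while each PGD3 square lies below each PGD3 circle.

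HHO3 was the regulator with the more regular pattern. Its signal was 239.5 in the treated line array, 240.7 (replicate 1) and 291.9 (replicate 2) in the untreated line, 204.7 and 262.1 in the treated wild type and 195.2 and 237.3 in the untreated wild type. The line without dexamethasone was above the wild type without it in both replicates, and replicate 2 was above replicate 1 in each of the 3 groups that hold both, although 1 replicate 1 array, that of the untreated line, overlapped with replicate 2. Without dexamethasone the line averaged 266 ± 36.2 and the wild type 216 ± 29.8 (SD, n = 2 each), and the ratio of line to wild type was 1.23 in replicate 1 and 1.23 in replicate 2. On the scale of log2(signal + 16) the difference was 0.28 ± 0.21 (SE), with a 95% interval from -0.23 to 0.79 and an adjusted p of 1 by limma. With the replicate as a block it was 0.28 ± 0.14 (SE). The 95% interval was then -0.04 to 0.6, and limma gave an adjusted p of 0.962. With dexamethasone, the ratio of line to wild type within replicate 2 was 0.914. The 4 group means ran from 266 in the untreated line through 239.5 in the treated line and 233 in the treated wild type to 216 in the untreated wild type, and no step between neighbours exceeded the SD of the groups with 2 arrays.

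The dexamethasone difference of HHO3 had opposite signs in the line and in the wild type, but the contrast between them did not pass the test. In replicate 2 the treated line had 0.820 times the untreated signal, and for the wild type the ratio of treated to untreated was 1.10 (1.05 in replicate 1). The line's response minus the wild type's was -0.24 ± 0.33 (SE) on the log2 scale, its 95% interval was -1.05 to 0.57, and limma gave an adjusted p of 1. The untreated line of replicate 2, which enters this value, had an actin ratio of 1.59. With the replicate as a block the difference of responses was -0.38 ± 0.22 (SE), with an adjusted p of 0.724 by limma. Without the pair of arrays with the highest actin ratios the unblocked value was 0.06, but the line's response then sets replicate 2 (239.5, treated) against replicate 1 (240.7, untreated) and cannot be told apart from the replicate difference.

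HHO2, the paralogue from the same family, stayed within a narrower band. It had 219.7 in the treated line array, 207.1 (replicate 1) and 188.4 (replicate 2) in the untreated line, 190.0 and 221.4 in the treated wild type and 199.5 and 235.5 in the untreated wild type. The lowest and the highest array both belonged to replicate 2 and to the plants without dexamethasone, and line and wild type overlapped. The line averaged 205 ± 15.7 (SD, n = 3) and the wild type 212 ± 20.7 (SD, n = 4), a log2 difference of -0.04 ± 0.13 (SE) over both treatments with a 95% interval from -0.35 to 0.27, which corresponds to 0.786-fold to 1.21-fold. Without dexamethasone the ratio of line to wild type was 1.04 in replicate 1 and 0.800 in replicate 2, so the replicates did not share a direction. The untreated line array of replicate 2, the lowest for HHO2, had an actin ratio of 1.59. The part of RNA integrity in the HHO2 values was not tested. Dexamethasone in the line gave 0.14 ± 0.22 (SE) and in the wild type -0.07 ± 0.18 (SE), neither past the threshold.

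NRT1.4, the transporter, had opposite differences between line and wild type in the 2 replicates. Its signal was 166.9 in the treated line array, 122.2 (replicate 1) and 200.1 (replicate 2) in the untreated line, 146.2 and 141.6 in the treated wild type and 175.5 and 117.8 in the untreated wild type. Without dexamethasone the ratio of line to wild type was 0.696 in replicate 1 and 1.70 in replicate 2, and the highest and the lowest of the 7 arrays were the line and the wild type of that second pair. That line array had an actin ratio of 1.59, and the part of RNA integrity in this difference was not tested. The means were 161 ± 55.1 in the untreated line and 147 ± 40.8 in the untreated wild type (SD, n = 2 each), and the log2 difference of 0.11 ± 0.28 (SE) was -0.21 when the untreated line of replicate 2 was left out and -0.15 when the untreated wild type of replicate 2 was. Dexamethasone in the wild type also had no shared direction, at 0.833 times the untreated signal in replicate 1 and 1.20 times in replicate 2. In the line, within replicate 2, the treated array had 0.834 times the untreated signal. A 95% interval of -0.57 to 0.79 for the untreated comparison leaves room for a change of up to 1.73-fold.

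PGD1, a 6-phosphogluconate dehydrogenase gene, varied least of the 5. Its signal was 1392.1 in the treated line array, 1385.3 (replicate 1) and 1523.7 (replicate 2) in the untreated line, 1603.5 and 1415.0 in the treated wild type and 1374.6 and 1382.4 in the untreated wild type. The treated wild type of replicate 1 stood highest, the 2 untreated wild type arrays were nearly equal, and line and wild type overlapped. The line averaged 1434 ± 78.0 (SD, n = 3) and the wild type 1444 ± 108 (SD, n = 4), and the 95% interval of the difference over both treatments ran from 0.841-fold to 1.19-fold. The dexamethasone response was -0.06 ± 0.18 (SE) in the line and 0.13 ± 0.15 (SE) in the wild type on the log2 scale.

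PGD3, which encodes the same enzyme, separated the replicates. It had 466.4 in the treated line array, 509.6 (replicate 1) and 310.3 (replicate 2) in the untreated line, 517.2 and 343.3 in the treated wild type and 565.2 and 422.0 in the untreated wild type. All 4 replicate 2 arrays lay below all 3 replicate 1 arrays. Replicate 2 averaged 386 ± 71.4 (SD, n = 4) and replicate 1 averaged 531 ± 30.1 (SD, n = 3), and within groups the ratio of replicate 2 to replicate 1 was 0.609 in the untreated line, 0.664 in the treated wild type and 0.747 in the untreated wild type. With line and dexamethasone as terms the log2 difference was -0.47 ± 0.16 (SE), with a 95% interval from -0.84 to -0.09, an unadjusted p of 0.0200 and an adjusted p of 0.0954 by limma, so PGD3 did not pass the threshold of 0.05. Unadjusted p under 0.05 were held by 31.6% of the tested probe sets here. After adjustment 11.5% of the 10183 tested probe sets passed in this comparison and 0 of the 5 genes did. Groups did not overlap, with replicate 2 lower, for 19.8% of the tested probe sets, and replicate 2 was higher without overlap for 16.8%, so the separation seen for PGD3 was common on these arrays. The number of probe sets that passed, 1167, itself depended on single arrays and lay between 39 and 2850 with 1 array left out.

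The arrays with the highest actin ratios (line without and wild type with dexamethasone, replicate 2) held the 2 lowest PGD3 signals, which was so for 20.3% of the tested probe sets. LHCB4.1, the measured green tissue marker, had its 2 lowest signals on the same arrays, at 58.4 to 83.9 in replicate 2 and 91.0 to 119.5 in replicate 1. So did the root hair marker EXPA7, which passed the threshold between replicates. EXPA7 ranged over 27.0 to 86.6 in replicate 2, against 112.6 to 127.6 for replicate 1. EXPA18, the other root hair marker, went the opposite way, with each replicate 2 signal (lowest 194.1) above each replicate 1 signal (highest 193.6). Its log2 difference of 0.49 did not pass (adjusted p 0.0638 by limma). On the arrays with the highest actin ratios EXPA18 had 194.1 (untreated line) and 313.1 (treated wild type), the latter its highest. Without both arrays the replicate difference of PGD3 was -0.25, with an adjusted p of 0.211, and over all alternatives the adjusted p lay between 0.0209 and 0.315. It passed without the treated line of replicate 2 (-0.56, adjusted p 0.0209), without the untreated wild type of replicate 2 (-0.63, 0.0235) and with the replicate number as the only term (-0.46, 0.0323). The part of green tissue or root hairs in the PGD3 values was not tested.

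**Figure D2:**
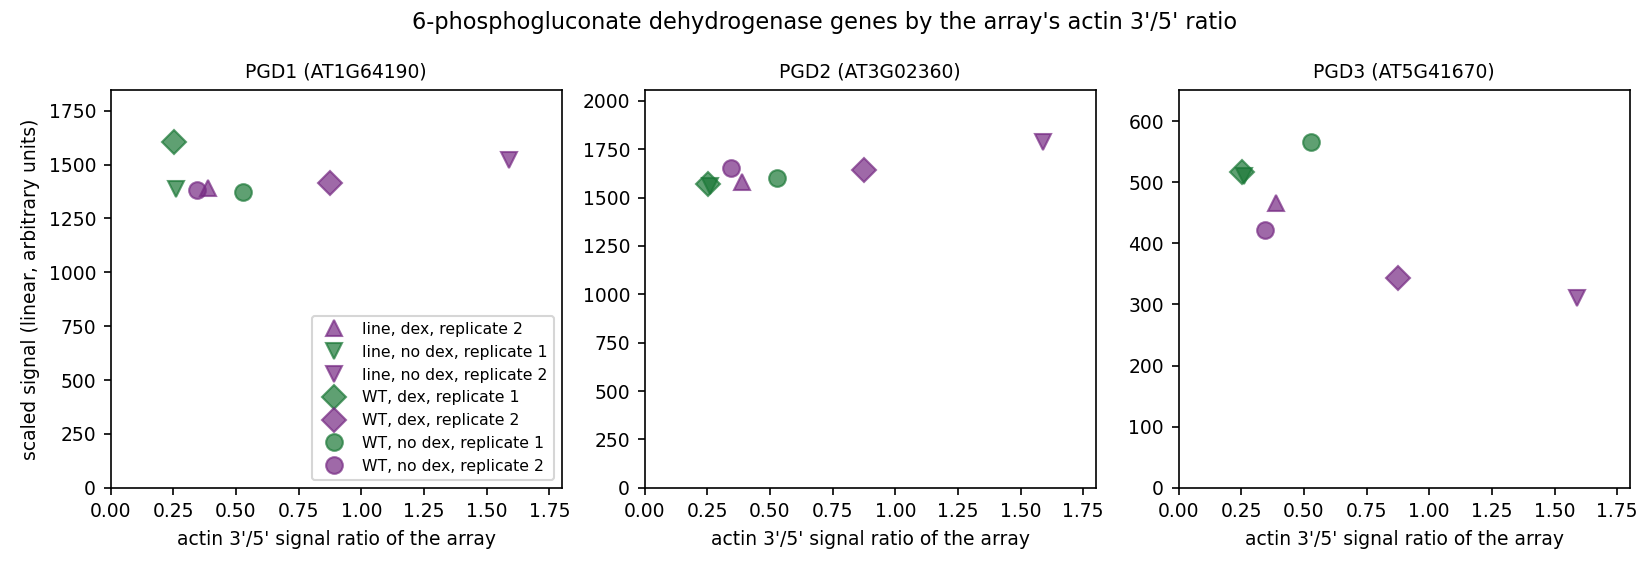
Scaled signal (linear, arbitrary units) of PGD1, PGD2 and PGD3 on each of the 7 arrays against the actin 3'/5' signal ratio of the array, with purple for replicate 2, green for replicate 1 and a marker shape for each group. The arrays at ratios of 0.876 and 1.59 have the lowest PGD3 signals, 343.3 and 310.3, while their PGD1 signals of 1415.0 and 1523.7 lie within the range of the other arrays.

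PGD2 (AT3G02360), the third 6-phosphogluconate dehydrogenase gene, whose protein is found in the cytosol and peroxisomes, gives a further reading of the same enzyme. Its signal was 1581.1 in the treated line array, 1557.9 and 1785.3 in the untreated line, 1571.2 and 1643.1 in the treated wild type and 1601.9 and 1652.5 in the untreated wild type. Between replicates its log2 difference was 0.09 ± 0.09 (SE) and that of PGD1 -0.03 ± 0.10, set beside the -0.47 ± 0.16 of PGD3, and the difference between the genes was not itself tested. PGD2 had its highest signal on the untreated line array of replicate 2, where PGD3 had its lowest.

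The dexamethasone difference of PGD3 also had opposite signs in the line and in the wild type, while the treated line's own signal of 466.4 was the median of the 7 arrays. Within replicate 2 the line had 1.50 times the untreated signal with dexamethasone, and the wild type had 0.814 times its untreated signal in replicate 2 and 0.915 times in replicate 1. Without a term for the replicate the response of the line was 0.22 ± 0.39 (SE) and its difference from the wild type response 0.43 ± 0.51 (SE). With the replicate as a block these values were 0.50 ± 0.18 and 0.70 ± 0.23, with unadjusted p of 0.0270 and 0.0169 by limma and adjusted p of 0.806 and 0.688. Unadjusted p under 0.05 were held by 5.92% and 7.08% of the tested probe sets in those blocked comparisons, against 1 of these 5 genes. The comparison rests on 1 treated line array and on the untreated line array with the actin ratio of 1.59. Without the latter array the unblocked response was -0.12, a value that sets replicate 2 (466.4, treated) against replicate 1 (509.6, untreated) and cannot be told apart from the replicate difference. Within replicate 2 the ratio of treated to untreated was 1.38 in the line and 0.762 in the wild type for LHCB4.1, and 3.21 and 0.588 for EXPA7. Their blocked differences of responses were 0.64 ± 0.22 and 1.23 ± 0.39 (SE), with unadjusted p of 0.0226 and 0.0153 and an adjusted p of 0.688 for each by limma. The other root markers did not share this pattern. Within replicate 2 the ratio of treated to untreated was 1.03 in the line and 1.02 in the wild type for EXPA18. For PYK10 it was 0.86 and 1.01. The blocked differences of responses were -0.11 ± 0.30 for EXPA18 and -0.18 ± 0.15 for PYK10 (SE). The part of green tissue and of root cell types in these PGD3 values was not tested.

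**Figure D3:**
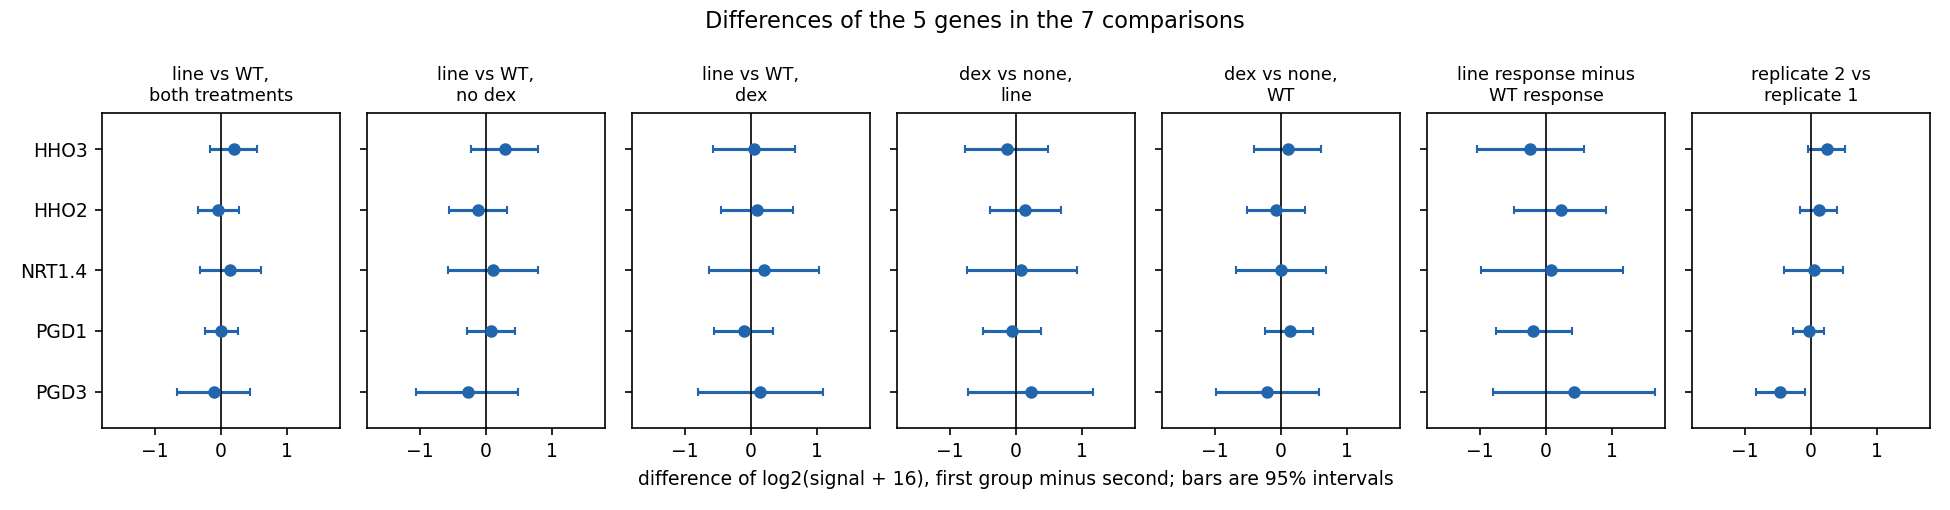
Differences of log2(signal + 16), first group minus second, of the 5 genes in the 7 comparisons, as points with 95% intervals from limma without the replicate block (the replicate comparison has line and dexamethasone as terms). Among the 35 intervals 1 excludes 0, that of PGD3 between replicates, from -0.84 to -0.09.

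By limma 0 of the 5 genes passed an adjusted p of 0.05 in any of the 6 comparisons of line and dexamethasone, with or without the replicate block. The share of all tested probe sets that passed was 0% in each of the 6 without the block and at most 0.00982% with it. Without the block 0 of the 5 had an unadjusted p under 0.05, and among all tested probe sets the shares were 0.54% for the line over both treatments, 0.403% for the line without dexamethasone and 0.403% with it, 0.53% for dexamethasone in the line, 0.187% in the wild type and 0.746% for the difference of these responses. With the block PGD3 was the only one of the 5, in the pair of comparisons above, and the shares in the other 4 were 1.59% for the line over both treatments, 3.74% without and 3.79% with dexamethasone, and 1.13% for dexamethasone in the wild type. Over both treatments and without the block, 2 of the 5 genes had positive line differences, beside 49.8% of all tested probe sets. The medians were 0.00 and 0.00, and PGD1, counted as negative, had a difference that rounds to 0.00. In the line 3 of 5 had positive dexamethasone responses, beside 50.3% of all tested probe sets, with a median of 0.08 beside 0.001. No gene of the 5 separated the line from the wild type over both treatments, where 1.14% of tested probe sets were higher and 0.874% lower without overlap. Over both treatments and without the block, the interval of the line difference was narrowest for PGD1, 0.841-fold to 1.19-fold, and widest for PGD3, 0.629-fold to 1.36-fold, whereas with the block it was widest for NRT1.4, 0.809-fold to 1.49-fold, and PGD3 had 0.761-fold to 1.28-fold.

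The 5 genes differed in how much they varied over all 7 arrays. The highest array over the lowest, on signal + 16, was 1.16 for PGD1, 1.23 for HHO2, 1.46 for HHO3, 1.62 for NRT1.4 and 1.78 for PGD3, beside a median of 1.41 over all tested probe sets. Among probe sets within 2-fold of its own mean signal, PGD1 had a wider range than 8.34%, HHO2 than 14.2%, HHO3 than 54.7%, NRT1.4 than 72.9% and PGD3 than 81.3%. PGD1 and HHO2 were thus among the steadier probe sets of their brightness on these arrays, and PGD3 among the more variable.

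**Figure D4:**
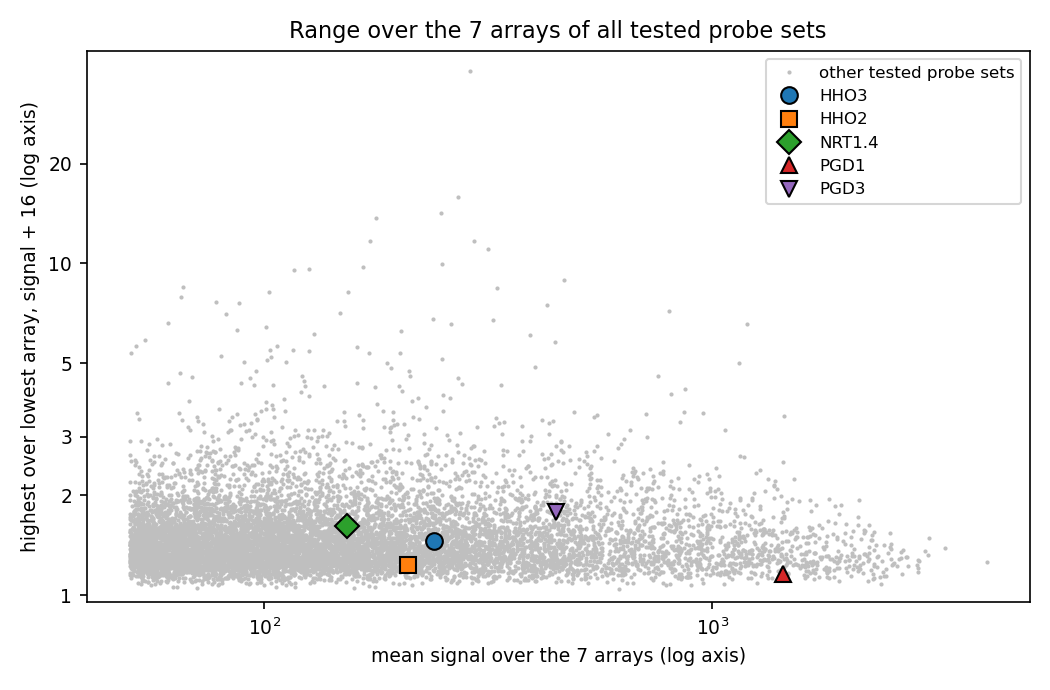
Highest array over lowest array (signal + 16, log axis) against mean signal (log axis) for the 10183 tested probe sets, in grey, with the 5 genes marked. PGD1 (1.16) and HHO2 (1.23) lie near the lower edge of the cloud and PGD3 (1.78) above its median of 1.41.

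Relatives of these genes and other genes of the pathways were listed by locus. Of 88 listed genes the platform annotation paired 11 with 1 probe set of their own, and 7 were bright enough to be tested. The others may still have probe sets on the array, since the annotation does not list 8794 of the 22810. By limma 0 of these 7 passed, higher or lower, in each of the 7 comparisons, blocked fits included, and the only unadjusted p under 0.05 was that of AT3G60320 between replicates. Among the regulators, HHO1 (AT3G25790), a nitrate-induced member of the HHO family, had 65.4 in the treated line array, 66.0 and 52.9 in the untreated line, 57.6 and 58.9 in the treated wild type and 43.5 and 54.3 in the untreated wild type. Its log2 difference between line and wild type over both treatments was 0.18 ± 0.12 (SE), and it did not pass. HHO3 had 0.19 ± 0.15 and HHO2 -0.04 ± 0.13, which did not pass either. Without dexamethasone the difference of HHO1 was 0.46 in replicate 1 and -0.03 in replicate 2, whereas that of HHO3 was 0.28 in each. AT3G60320, which encodes the nitrate signalling regulator NRG2, was lower in replicate 2 (105.6 to 143.4) than in replicate 1 (158.5 to 169.1), at a log2 difference of -0.36 ± 0.12 (SE), for which limma gave an adjusted p of 0.0936, so it did not pass either. Such differences were common, as 31.6% of all tested probe sets had an unadjusted p under 0.05 by limma between replicates. Those lower in replicate 2 without overlap made up 19.8%.

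Dim probe sets gave only signals. HHO5 (AT4G37180) had 31.6 to 44.4 and HHO6 (AT1G49560) 18.8 to 28.5 over the 7 arrays. NRT2.5, a high-affinity nitrate transporter gene of nitrogen-starved plants that HHO proteins repress, had 14.0 to 20.0. These were below the mean signal of 50 required for a test, and with no detection calls their presence cannot be judged. NRT1.3 (AT3G21670), a relative of NRT1.4, had 33.5 to 58.6, with a log2 difference between line and wild type of 0.11 ± 0.16 (SE).

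Later steps of the pentose phosphate pathway are read by 3 tested genes and a dim one. AT1G63290, a ribulose-phosphate epimerase, had 304.8 in the treated line array, 222.6 and 253.8 in the untreated line, 243.6 and 264.7 in the treated wild type and 217.0 and 256.5 in the untreated wild type, so its treated line array was the highest of the 7. Its dexamethasone response in the line was 0.34 ± 0.22 (SE) on the log2 scale, with an adjusted p of 1 by limma. AT3G01850, another epimerase gene, ran from 41.2 to 62.5, and AT1G12230, a transaldolase, from 227.4 to 307.6, with responses of 0.33 ± 0.22 and 0.16 ± 0.24 in the line. The ribose-phosphate isomerase gene AT5G44520 was dim, at 15.9 to 21.6. None of the 18 listed genes of nitrate and ammonium assimilation was paired by the annotation with 1 probe set of its own, so nitrate reductase and nitrite reductase are not described.

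To find genes that moved like each of the 5, log2 values were centred within each replicate number. Each gene was compared over the 7 arrays with 5289 other tested probe sets of 1 gene each. HHO3 was most like AT1G65510 (r = 0.992), AT4G01040 (0.991) and AT4G05160 (0.986). HHO2 was most like AT1G76070 (0.989), AT4G30600 (0.985) and SHL1 (0.982). For NRT1.4 they were AT4G16660 (0.996), AT4G17620 (0.991) and the defensin-like gene PDF2.5 (0.990). For PGD1 they were AT2G31740 (0.988), AT5G10710 (0.986) and AT3G60540 (0.976). For PGD3 they were AT1G14910 (0.994), SAPX, a stromal ascorbate peroxidase (0.994), and AT3G12590 (0.993). Over the 7 arrays r was at least 0.9 for 31 probe sets with PGD1 (0.586%), 74 with HHO3 (1.4%), 95 with HHO2 (1.8%), 105 with NRT1.4 (1.99%) and 234 with PGD3 (4.42%). The named genes were picked as the highest of 5289, so their high r was built in by the choice. How often other genes reach such values was not tested, nor was the part of the arrays with the highest actin ratios. Among the 5 genes themselves r was -0.47 between HHO3 and HHO2 and -0.52 between PGD1 and PGD3. Neither the pair of regulators nor the pair of enzyme genes thus moved alike on these arrays. The other negative values were -0.81 (HHO2, NRT1.4), -0.79 (HHO3, PGD3), -0.74 (HHO2, PGD1) and -0.24 (NRT1.4, PGD3). The positive values were 0.64 (HHO2, PGD3), 0.34 (NRT1.4, PGD1), 0.23 (HHO3, PGD1) and 0.1 (HHO3, NRT1.4).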

How the data were processed

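The authors deposited a linear intensity for each probe set on each array, on a scale that gave every array a 2% trimmed mean of 100.0. Which software summarised the probes is not given in the sources used here. Per the labels, scanner background ran from 62.86 to 85.18. With the 64 control probe sets removed, the 10183 probe sets with a mean signal of at least 50 were tested on log2(signal + 16), which understates changes at low signal. The tool was limma 3.58.1 (R 4.3.3; lmFit, eBayes with a trend), with Benjamini-Hochberg adjustment over all tested probe sets and a threshold of 0.05. The line was compared over both treatments with dexamethasone as an additive term, the other contrasts came from a model of the 4 groups, and the replicate comparison had line and dexamethasone as terms. The treated line has 1 array, assumed to vary like the others. The code of the fits was also run on simulated data. That run does not show how the fits perform on these arrays, where arrays of the same replicate number deviated together.

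Probe sets were named through the platform annotation, which gives 1 gene to 13513, several to 503 and does not list 8794, and 13436 matched a RefSeq gene (TAIR10.1), used for names only. Replicate numbers were taken from the labels. Deviations from the group means correlated across probe sets between the 3 groups with both numbers. The r was 0.472 between untreated line and untreated wild type and 0.622 between treated and untreated wild type. Between untreated line and treated wild type, whose replicate 2 arrays have the highest actin ratios, it was 0.826. The part of RNA integrity in these values was not tested. The labels describe biological replicates. Alternatives were a replicate block, other scalings, other numbers added before the log, other filters, no trend and each array left out, and, chosen after seeing the data, leaving out the pair of arrays with the highest actin ratios. The 5 genes and all lists were chosen with earlier results of these data known. Named beyond the 5 were the listed genes with a probe set and, for each gene, the 3 with the highest correlation. The number of arrays limits the precision.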

Additional observations from a re-analysis of the deposited data

How the results depend on the processing

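None of the 5 genes passed in a comparison of line or dexamethasone under any alternative, and the replicate block changed no call of theirs. Of 545 values of single genes under alternatives, 492 kept direction and side of the threshold, 50 changed sign and 3, all of PGD3 between replicates, passed newly. Most sign changes concern differences near 0, and the cause was not tested. Line minus wild type over both treatments: PGD1 turned to 0.03 with quantile normalization, 0.0082 with centring on the median and 0.0068 with the replicate block, and with 1 array left out ran from -0.05 to 0.07, HHO2 from -0.12 to 0.04, NRT1.4 from -0.009 to 0.31 and PGD3 from -0.28 to 0.1. Line minus wild type without dexamethasone, 1 array left out: NRT1.4 from -0.21 to 0.43, PGD3 from -0.63 to 0.06. With dexamethasone: HHO3 was -0.1 with the block and, 1 array left out, from -0.12 to 0.21, HHO2 from -0.01 to 0.19, PGD3 from -0.14 to 0.43. Dexamethasone in the line: PGD1 from -0.13 to 0.007, PGD3 from -0.12 to 0.56, NRT1.4 from -0.24 to 0.4. Dexamethasone in the wild type: NRT1.4 was 0.00077 with 1 added before the log, 0.0019 with quantile normalization and 0.02 with centring, and, 1 array left out, from -0.26 to 0.26, HHO3 from -0.07 to 0.27, HHO2 from -0.19 to 0.04, PGD3 from -0.49 to 0.08. Line response minus wild type response: NRT1.4 from -0.24 to 0.41. Replicates: PGD1 was 0.04 with centring and from -0.09 to 0.07, NRT1.4 from -0.28 to 0.3.

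Without the pair of arrays with the highest actin ratios, which leaves comparisons in part or wholly across replicates, line minus wild type over both treatments was 0.05 for HHO2 and -0.05 for NRT1.4, without dexamethasone -0.21 for NRT1.4 and 0.06 for PGD3, and with dexamethasone -0.14 for PGD3. Dexamethasone in the line was 0.007 for PGD1 and -0.12 for PGD3, in the wild type -0.07 for HHO3, 0.02 for NRT1.4 and 0.08 for PGD3, the difference of responses 0.06 for HHO3 and -0.2 for PGD3, and the replicate difference -0.08 for NRT1.4.

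Over all probe sets, 0 passed between line and wild type over both treatments, and 1 with 1 added, with centring, with a minimum signal of 100, with the block and without the pair of arrays. Without that pair 1 also passed without and with dexamethasone. With 1 array left out these 3 counts ran from 0 to 1. The 1167 probe sets between replicates were 468 without the filter and 2457 with the replicate number alone. With 1 array left out they ran from 39 to 2850: 39 without the treated wild type, 62 without the untreated line and 198 without the untreated wild type of replicate 1, 264 without the treated and 2850 without the untreated wild type of replicate 2. These counts rest on few residual degrees of freedom.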
